A study of Mus musculus with 12 samples.

Results

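The genes described here make or sense prostaglandins and leukotrienes, in macrophages that had entered neuroblastoma spheres and in macrophages that had stayed outside them. The set names 10 genes, Ptgs1, Ptgs2, Ptges, Hpgds, Alox5, Alox5ap, Ltc4s, Alox15, Ptger2 and Ptger4. A gene was read from a probe set that the platform annotation pairs with that symbol alone, and where a gene had several, from the one with the highest mean over all 12 arrays. By that rule 9 of the 10 had a probe set, out of 17097 genes on the array. Ptgs1, the constitutive cyclooxygenase, had none and was not analysed here. Of the 9, 8 passed the filter on dim probe sets and were tested among 12488 genes, and Alox15 did not pass it.

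TT9423 is a mouse neuroblastoma cell line, grown here as spheres over agar, to which bone marrow-derived macrophages of C57BL/6 mice were added. In-sphere macrophages at 48 h and at 24 h were released by enzymatic digestion of the spheres and selected on magnetic columns for CD11b, a surface integrin of myeloid cells. Outside macrophages at 48 h and at 24 h had not entered the spheres of those same cultures. Each of the 4 groups held 3 arrays, and each replicate number was an independent experiment with cells pooled from several wells. The labels do not say whether outside cells went through digestion and selection too, so handling and place in the culture cannot be told apart. The 48 h label rests on the titles and the time label, since the protocol common to every sample speaks of 24 h of co-culture.

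Prostaglandins and leukotrienes are short-lived lipid signals made from arachidonic acid, which phospholipases free from membranes. Cyclooxygenases turn the acid into prostaglandin H2, from which terminal synthases make prostaglandin E2, prostaglandin D2 and other prostanoids. The 5-lipoxygenase, working with its activating protein, turns the acid into leukotriene A4, the parent of leukotriene B4 and of the cysteinyl leukotrienes. Macrophages make both classes, and both act through cell-surface receptors that macrophages and their neighbours carry.

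Of the 8 tested members, Ptgs2 was higher in spheres, and Alox5 and Hpgds were lower, at both times and under every alternative that was run. Ptges and Ltc4s were higher in spheres at 24 h and Ptger2 was lower at 48 h, and each of these calls was lost when certain single arrays were left out. Alox5ap and Ptger4 passed the test at neither time. Values are RMA expression on the log2 scale, where 1 unit is a doubling. A difference is the in-sphere mean minus the outside mean with the standard error of the limma fit to all 12 arrays. Calls required an adjusted p under 0.05, by Benjamini-Hochberg over all genes tested.

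Median values of the arrays lay between 3.03 and 3.17, and even the closest pair of arrays differed by a median of 0.139, so none was deposited in duplicate. The in-sphere array of replicate 3 at 48 h was unlike its group, with a mean of 4.06 against 4.22 and 4.22 in the other in-sphere replicates at that time and the lowest array weight, 0.235. Macrophage markers were present, since 9 of 10 listed genes had a probe set and all 9 lay above the filter level of 2.77 on every array. Their summed signal, on the linear scale, ran from 18189 to 19917 in spheres and from 17843 to 19943 outside at 48 h, and from 17453 to 20588 in spheres and from 16397 to 19430 outside at 24 h. Single macrophage markers did differ, with 2 of 9 tested called higher and 3 lower in spheres at 48 h. At 24 h 1 was higher and 2 were lower. Mertk differed by -1.25 at 48 h and -0.91 at 24 h, and Cd14 by 1.09 and 0.54. The shares of all genes called are given with the other markers below. The signal ratio of the 3' to the 5' probe set of actin, a sign of RNA integrity, was 0.393 to 0.416 log2 units in spheres and 0.370 to 0.396 outside at 48 h. The 24 h ratios were 0.350 to 0.604 in spheres and 0.224 to 0.324 outside.

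Summed signals of markers of other cells also differed with place in the culture. As a measure for the counts of single markers, 15.2% of all genes tested were called higher and 22.3% lower in spheres at 48 h. At 24 h those shares were 15.8% and 13.6%. All 8 tested neutrophil markers were lower in spheres at both times, and their summed signal was 13369 to 20640 in spheres against 36461 to 49065 outside at 48 h, and 19237 to 26087 against 43632 to 52309 at 24 h. Of 6 mast cell and basophil markers tested, 2 were lower in spheres at 48 h and 3 at 24 h, with sums of 70.1 to 106 in spheres and 108 to 271 outside at 48 h, and 78.3 to 120 in spheres and 172 to 384 outside at 24 h. The histidine decarboxylase gene Hdc averaged 4.79 in spheres and 6.55 outside at 48 h, and 5.49 and 7.30 at 24 h, and Kit was the other gene of the list called at both times. Kit was dim, above the filter level on 0 in-sphere arrays at either time and at a mean of 2.86 outside at both. Mcpt8, Tpsb2 and Gata2 were called at neither time. Mast cell carboxypeptidase Cpa3 averaged 2.75 in spheres and 4.26 outside at 48 h (adjusted p = 0.0786), and 2.87 and 4.78 at 24 h (0.0370). The IgE receptor gene Fcer1a and the protease gene Mcpt4 were above the filter level on 0 arrays of each group. Eosinophil markers summed to 26.5 to 39.9 in spheres and 90.8 to 106 outside at 48 h, and to 27.5 to 42.8 and 94.7 to 134 at 24 h, with 1 of 3 tested lower at 48 h and 2 of 3 at 24 h. The granule protein gene Prg2 averaged 3.21 in spheres and 6.16 outside at 48 h (adjusted p = 3.08e-04), and 3.32 and 6.33 at 24 h (4.02e-04), while the peroxidase gene Epx and the receptor gene Il5ra were above the level on 0 arrays. Fibroblast markers ran the other way, with sums of 2661 to 2743 in spheres and 430 to 697 outside at 48 h, and 1831 to 3778 in spheres and 391 to 653 outside at 24 h. Of 9 tested, 6 were higher and 1 was lower at 48 h, and 5 were higher and 1 was lower at 24 h. The lower one was the collagen gene Col1a1, with differences of -1.23 at 48 h (limma adjusted p = 6.19e-04) and -0.60 at 24 h (0.0452). Lum and Pdgfrb were called at neither time. Col3a1 and Dcn had the highest means of the list in spheres, 10.8 and 8.69 at 48 h, and so weigh most in the sum. Neuroblastoma and neural markers summed to 170 to 249 in spheres and 74.7 to 80.3 outside at 48 h, and to 157 to 278 and 79.9 to 85.4 at 24 h. Of 8 tested, 1 was higher at each time, the growth-cone gene Gap43. Megakaryocyte and platelet markers summed to 8223 to 8603 in spheres and 3075 to 4139 outside at 48 h, and to 7618 to 9466 and 4845 to 5820 at 24 h, where 2 of 6 were higher and 4 lower, against 2 higher and 3 lower at 48 h. The 2 higher genes were Pf4 and Ppbp, the brightest of the list, with means of 12.7 and 10.7 in spheres at 48 h. They dominate the linear sum, which therefore does not follow the other genes of the list. Itga2b, Gp9 and Gp1bb were lower at both times, with differences of -1.82, -1.60 and -1.96 at 48 h and -2.24, -2.47 and -3.24 at 24 h. Gp6 was called lower at 24 h alone (-0.51). The part of these cells in the differences below was not tested. In bulk RNA, fewer cells of a type and less RNA per cell cannot be told apart.

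**Figure D1:**
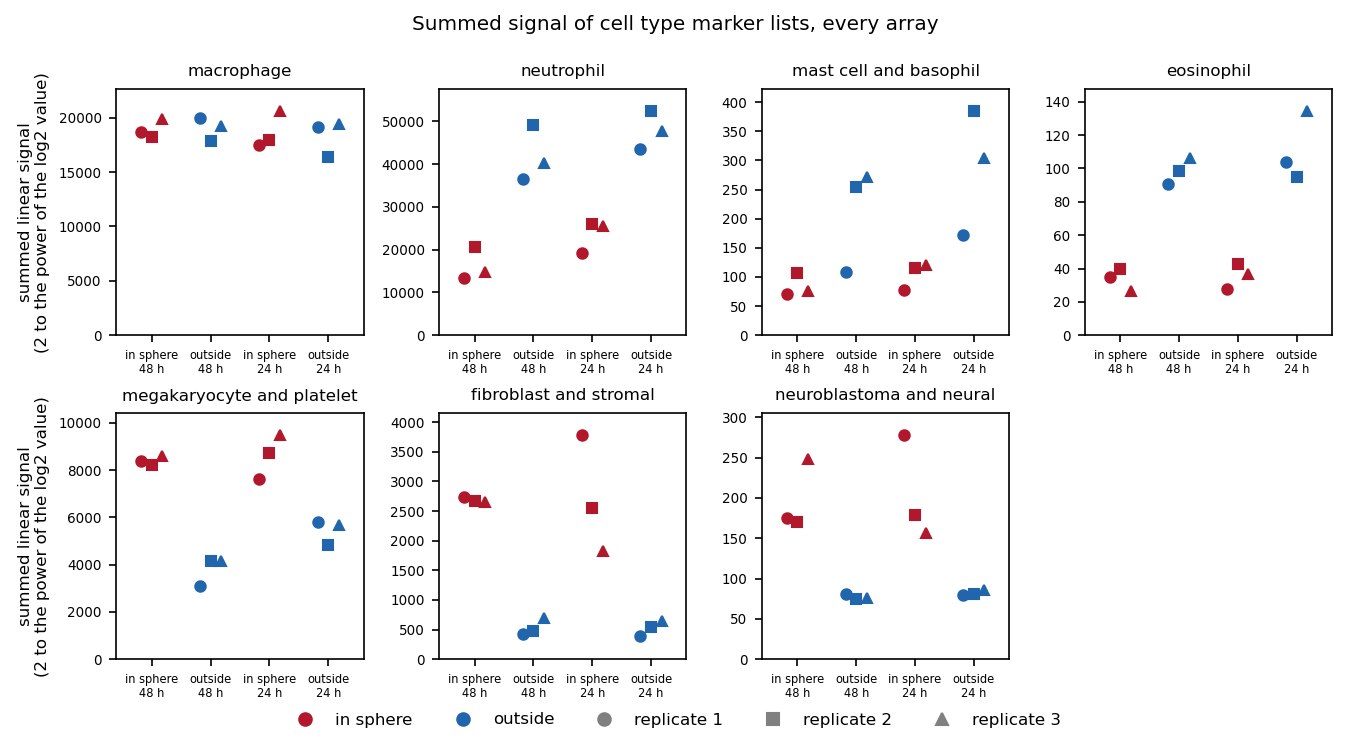
Summed linear signal of the marker lists on each array, on a linear axis from 0, with in-sphere and outside macrophages at 48 h and then at 24 h. Each point is 1 array. The macrophage sums overlap between in-sphere and outside arrays, while the neutrophil sums of all in-sphere arrays lie below those of all outside arrays.

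Promoter windows of 4 enzyme genes of the set are shown with their letters, the 3 whose calls held throughout and Ptges, which acts directly after Ptgs2, because sequence is the feature these genes carry that the choice of members did not use. Each window holds 250 bases before and 50 after the RefSeq transcription start in GRCm38.p6, written 5' to 3' on the gene's own strand. Capitals mark matches to 4 short motifs, searched on both strands. The first is TGACG, the core of a cyclic AMP response element. The second is ACGTG, a core shared by E-box and hypoxia-response elements. The third is GGGCGG, known as the GC box. The last is GAGGAA, a core bound by PU.1-type factors, and a reverse-strand match shows its complement in capitals. Ptgs2 lies at chr1:150099781-150100080 on the plus strand, Ptges at chr2:30903248-30903547, Alox5 at chr6:116461129-116461428 and Hpgds at chr6:65144681-65144980, these 3 on the minus strand.
Ptgs2: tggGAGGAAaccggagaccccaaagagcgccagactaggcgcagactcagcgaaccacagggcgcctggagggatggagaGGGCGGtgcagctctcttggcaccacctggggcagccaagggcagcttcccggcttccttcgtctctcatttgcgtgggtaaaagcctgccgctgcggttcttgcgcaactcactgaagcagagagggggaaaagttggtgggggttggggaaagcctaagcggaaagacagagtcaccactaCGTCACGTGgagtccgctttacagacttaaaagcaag
Ptges: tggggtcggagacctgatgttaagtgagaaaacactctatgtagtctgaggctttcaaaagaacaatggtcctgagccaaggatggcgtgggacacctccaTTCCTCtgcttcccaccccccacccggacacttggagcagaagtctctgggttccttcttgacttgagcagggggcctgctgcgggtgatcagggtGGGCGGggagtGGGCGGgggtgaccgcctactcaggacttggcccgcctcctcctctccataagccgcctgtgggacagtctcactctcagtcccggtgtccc
Alox5: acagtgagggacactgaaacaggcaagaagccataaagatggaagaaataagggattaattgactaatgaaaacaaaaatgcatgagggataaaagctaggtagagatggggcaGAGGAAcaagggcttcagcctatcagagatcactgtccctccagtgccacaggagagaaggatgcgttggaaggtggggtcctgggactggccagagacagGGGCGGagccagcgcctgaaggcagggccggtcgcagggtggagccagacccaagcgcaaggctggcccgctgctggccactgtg
Hpgds: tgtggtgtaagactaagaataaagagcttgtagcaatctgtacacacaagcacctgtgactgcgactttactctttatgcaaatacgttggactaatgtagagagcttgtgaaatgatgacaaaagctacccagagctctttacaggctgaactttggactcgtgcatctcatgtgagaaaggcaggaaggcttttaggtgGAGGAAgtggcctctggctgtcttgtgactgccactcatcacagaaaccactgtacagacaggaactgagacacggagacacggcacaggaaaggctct
The Ptgs2 window held 1 TGACG, 2 overlapping ACGTG matches, 1 GGGCGG and 1 GAGGAA, and the TGACG match, on the reverse strand 14 bases past the start, overlaps the ACGTG matches in a single run of capitals. The Ptges window held 2 GGGCGG and 1 GAGGAA on the reverse strand, the Alox5 window 1 of each, and the Hpgds window 1 GAGGAA alone. Over all 32851 windows of this length, 20.81% held TGACG, 19.62% ACGTG, 35.66% GGGCGG and 28.28% GAGGAA, so each motif is common and a match is a description of the letters, not a binding site. Windows were found for 8 of the 10 members.

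Ptgs2 encodes the inducible cyclooxygenase, which makes prostaglandin H2 in activated macrophages, and was read from probe set 1417262_PM_at. At 48 h its levels were 10.96, 10.78 and 10.74 in spheres, against 9.15, 9.71 and 9.63 outside. At 24 h they were 10.65, 10.90 and 10.98 in spheres, against 10.11, 10.24 and 10.23 outside. Every in-sphere array was above every outside array at both times. The difference was 1.33 ± 0.15 at 48 h, a fold of 2.51 (SE, n = 3 against 3, limma adjusted p = 4.06e-05). At 24 h it was 0.65 ± 0.15, a fold of 1.57 (adjusted p = 0.00678). The other probe set of Ptgs2 gave differences of 1.34 ± 0.21 at 48 h (adjusted p = 5.09e-04) and 0.66 ± 0.21 at 24 h (adjusted p = 0.0391).

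Ptges encodes microsomal prostaglandin E synthase 1, the inducible enzyme that turns prostaglandin H2 into prostaglandin E2, and was read from probe set 1449450_PM_at. At 48 h its levels were 4.89, 4.39 and 3.42 in spheres, against 3.56, 3.23 and 3.50 outside. At 24 h they were 6.15, 4.71 and 4.48 in spheres, against 4.24, 3.62 and 3.77 outside. The groups did not overlap at 24 h. At 48 h replicate 3 in spheres, the array that stood apart, lay within the outside range. The difference at 24 h was 1.24 ± 0.42, a fold of 2.36 (SE, n = 3 against 3, limma adjusted p = 0.0425). The call was lost without in-sphere replicate 1 at 24 h, where the difference was 0.72 (adjusted p = 0.168), without outside replicate 2 or 3 at 24 h (adjusted p = 0.122 and 0.107), and when a 48 h array was left out, namely in-sphere replicate 2 (0.0536) or outside replicate 1, 2 or 3 (0.0542, 0.0537 and 0.0557). It was lost too with no filter on dim probe sets (0.0549) and with only the 24 h arrays in the fit (0.0554). Over all alternatives its adjusted p at 24 h ran from 0.00823, with the replicate number as a block, to 0.220. At 48 h the difference was 0.81 ± 0.42, with a 95% interval of -0.10 to 1.72 (adjusted p = 0.153). With the replicate number as a block the 48 h difference passed the test (adjusted p = 0.0483), and it also passed with array weights (0.00561) and without in-sphere replicate 3 at 48 h (1.21, adjusted p = 0.0386), in a range over alternatives of 0.00561 to 0.916. Without in-sphere replicate 1 at 48 h it was 0.48 (adjusted p = 0.423). The other 2 probe sets of Ptges, both dimmer, gave -0.032 (adjusted p = 0.916) and 0.11 (0.661) at 48 h, and 0.47 (0.0862) and 0.30 (0.220) at 24 h. Fibroblast marker sums for replicates 1, 2 and 3 were 2743, 2674 and 2661 in spheres and 430, 480 and 697 outside at 48 h. At 24 h they were 3778, 2547 and 1831 in spheres and 391, 547 and 653 outside. In spheres replicate 1 was the highest in both measures at both times, whereas outside it had the lowest fibroblast sum and the highest Ptges. The part of such cells in the Ptges difference was not tested.

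Hpgds encodes the haematopoietic prostaglandin D synthase, and was read from probe set 1421492_PM_at. Its levels at 48 h were 6.65, 6.91 and 6.73 in spheres, against 8.43, 8.42 and 8.49 outside. The 24 h levels were 5.28, 6.42 and 5.83 in spheres, against 7.75, 7.91 and 7.78 outside. Every in-sphere array was below every outside array at both times, and the in-sphere arrays at 24 h were spread more widely than any other group of this gene. The difference was -1.68 ± 0.22 at 48 h, a fold of 3.21 toward the outside cells (SE, n = 3 against 3, limma adjusted p = 8.92e-05). The 24 h difference was -1.97 ± 0.22, a fold of 3.92 (adjusted p = 4.72e-05). Mast cells also use this enzyme, and the mast cell and basophil sums given above were lower in spheres as well. For replicates 1, 2 and 3 those sums were 70.1, 106 and 75.7 in spheres and 108, 254 and 271 outside at 48 h. At 24 h they were 78.3, 116 and 120 in spheres and 172, 384 and 305 outside. The part of such cells in the Hpgds difference was not tested.

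**Figure D2:**
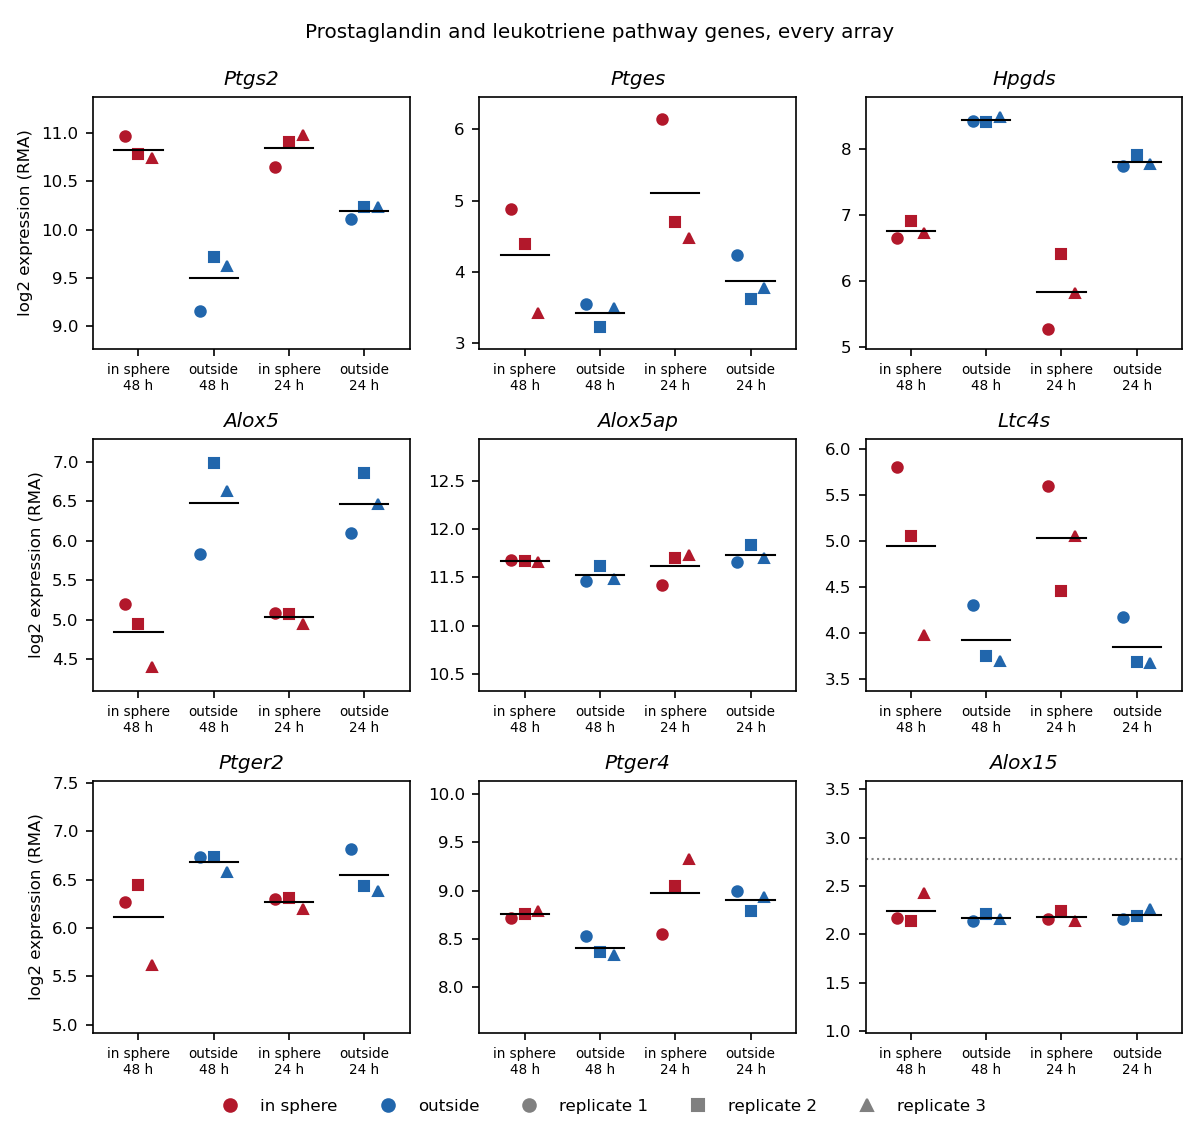
Log2 expression of the 9 members with a probe set on each of the 12 arrays, 1 panel per gene, with in-sphere and outside macrophages at 48 h and then at 24 h. Points are arrays, with a shape for each replicate number, lines are group means and the dotted line is the filter level. Ptgs2 sits higher and Alox5 and Hpgds sit lower on every in-sphere array at either time, while Alox15 stays between 2.14 and 2.43.

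Alox5 encodes 5-lipoxygenase, the enzyme that starts leukotriene synthesis, and was read from probe set 1441962_PM_at. Levels of Alox5 at 48 h were 5.20, 4.95 and 4.40 in spheres, against 5.84, 6.98 and 6.62 outside. Those at 24 h were 5.09, 5.07 and 4.95 in spheres, against 6.09, 6.85 and 6.46 outside. No in-sphere array reached the lowest outside array at either time. The difference was -1.63 ± 0.28 at 48 h, a fold of 3.10 (SE, n = 3 against 3, limma adjusted p = 7.70e-04). Its 24 h difference was -1.43 ± 0.28, a fold of 2.70 (adjusted p = 0.00249). Within experiments, the in-sphere array minus the outside array of the same number gave -0.64, -2.03 and -2.22 at 48 h and -1.01, -1.78 and -1.51 at 24 h, so replicate 1 differed least. Outside, Alox5 was lowest in replicate 1 and highest in replicate 2 at both times. Neutrophil marker sums for replicates 1, 2 and 3 were 13369, 20640 and 14755 in spheres and 36461, 49065 and 40241 outside at 48 h, and 19237, 26087 and 25584 in spheres and 43632, 52309 and 47672 outside at 24 h. Outside, replicate 1 was thus the lowest and replicate 2 the highest in both measures, whereas in spheres replicate 1 had the lowest neutrophil sum and the highest Alox5 at both times. Neutrophils express Alox5 too, and the part of such cells in its difference was not tested.

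Alox5ap encodes the 5-lipoxygenase-activating protein, which presents arachidonic acid to the enzyme, and was read from probe set 1452016_PM_at. At 48 h its levels were 11.68, 11.67 and 11.66 in spheres, against 11.46, 11.61 and 11.49 outside. At 24 h they were 11.42, 11.70 and 11.73 in spheres, against 11.66, 11.83 and 11.70 outside. In-sphere arrays lay above outside arrays at 48 h by a narrow gap, and the groups overlapped at 24 h. The difference was 0.15 ± 0.11 at 48 h, with a 95% interval of -0.099 to 0.40 (limma adjusted p = 0.335). At 24 h it was -0.11 ± 0.11, with an interval of -0.36 to 0.14 (adjusted p = 0.528). Both intervals leave out changes as large as that of Alox5.

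Ltc4s encodes leukotriene C4 synthase, which joins leukotriene A4 to glutathione and so opens the cysteinyl branch, and was read from probe set 1419692_PM_a_at. Ltc4s levels at 48 h were 5.80, 5.06 and 3.98 in spheres, against 4.30, 3.75 and 3.70 outside. Its 24 h levels were 5.60, 4.45 and 5.06 in spheres, against 4.17, 3.68 and 3.67 outside. The groups did not overlap at 24 h, and at 48 h only replicate 3 in spheres fell below the highest outside array. The difference at 24 h was 1.19 ± 0.40, a fold of 2.29 (SE, n = 3 against 3, limma adjusted p = 0.0401). That call was lost without in-sphere replicate 1 at 24 h (0.91, adjusted p = 0.160), in-sphere replicate 3 (0.0855), outside replicate 2 (0.107) or outside replicate 3 (0.111) at 24 h. It was also lost without in-sphere replicate 2 (0.0513), outside replicate 2 (0.0516) or outside replicate 3 (0.0506) at 48 h, with no filter (0.0520) and with array weights (0.70, adjusted p = 0.0756). Over alternatives the adjusted p at 24 h ran from 0.00675, with the replicate number as a block, to 0.160. At 48 h the difference was 1.03 ± 0.40, with a 95% interval of 0.16 to 1.90, and did not pass the test after adjustment (unadjusted p = 0.0239, adjusted p = 0.0605). It passed with the replicate number as a block (adjusted p = 0.0118), with arrays shifted to a common median (0.0130), with a further quantile normalisation (0.0276), with array weights (0.00154) and without in-sphere replicate 3 at 48 h (1.51, adjusted p = 0.00482). Without in-sphere replicate 1 at 48 h it was 0.60 (adjusted p = 0.227), and its adjusted p over alternatives ran from 0.00154 to 0.227. Within experiments, Ltc4s was higher in spheres in all 6 pairs of arrays, and the smallest difference was 0.28, in replicate 3 at 48 h.

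Alox15 encodes the 12/15-lipoxygenase of mouse macrophages and eosinophils, and was read from probe set 1420338_PM_at. At 48 h it read 2.16, 2.14 and 2.43 in spheres and 2.14, 2.21 and 2.16 outside. At 24 h it read 2.15, 2.24 and 2.14 in spheres and 2.16, 2.19 and 2.26 outside. None of the readings exceeded 2.77, the filter level (0 of 12 arrays), and no difference was tested at this signal.

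Ptger2 encodes EP2, a prostaglandin E2 receptor that raises cyclic AMP, and was read from probe set 1449310_PM_at. Ptger2 levels at 48 h were 6.27, 6.44 and 5.62 in spheres, against 6.73, 6.73 and 6.58 outside. Its levels at 24 h were 6.31, 6.31 and 6.20 in spheres, against 6.82, 6.43 and 6.39 outside. In-sphere arrays lay below outside arrays at both times, with replicate 3 at 48 h the lowest of all. The difference was -0.57 ± 0.19 at 48 h, a fold of 1.48 (SE, n = 3 against 3, limma adjusted p = 0.0336). Without in-sphere replicate 3 at 48 h it was -0.32 and no longer called (adjusted p = 0.107). The call was also lost without outside replicate 1, 2 or 3 at 48 h (adjusted p = 0.0892, 0.0889 and 0.0540), with array weights (-0.30, 0.0807) and with only the 48 h arrays in the fit (0.0790), in a range over alternatives of 0.0130 to 0.107. At 24 h the difference was -0.27 ± 0.19, with a 95% interval of -0.69 to 0.14 (adjusted p = 0.330). Within experiments, Ptger2 was lower in spheres in all 6 pairs of arrays, by a difference of -0.12 to -0.96.

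Ptger4 encodes EP4, another prostaglandin E2 receptor that raises cyclic AMP, and was read from probe set 1424208_PM_at. At 48 h its levels were 8.72, 8.76 and 8.79 in spheres, against 8.53, 8.36 and 8.33 outside. At 24 h they were 8.55, 9.04 and 9.33 in spheres, against 8.996, 8.79 and 8.94 outside. The arrays did not overlap at 48 h and overlapped at 24 h. The difference at 48 h was 0.35 ± 0.17, with a 95% interval of -0.017 to 0.71 (limma adjusted p = 0.125). It passed the test without in-sphere replicate 1 at 24 h (0.0307), with only the 48 h arrays (0.0404) and with array weights (0.0148), in a range over alternatives of 0.0148 to 0.265. At 24 h the difference was 0.069 ± 0.17, with an interval of -0.29 to 0.43 (adjusted p = 0.812). The other probe set of Ptger4 gave 0.38 at 48 h (adjusted p = 0.241) and 0.021 at 24 h (0.968).

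Counted together, 4 of the 8 tested members were called at 48 h, with 1 higher and 3 lower in spheres, where 37.5% of all genes tested were called (15.2% higher and 22.3% lower). The 24 h comparison called 5 of 8, with 3 higher and 2 lower, where 29.4% of all genes were called (15.8% higher and 13.6% lower). The arrays of the groups did not overlap for 6 of 8 members at 48 h and 6 of 8 at 24 h, 3 in each direction, while the same held for 51.6% of all genes at 48 h (20.7% higher and 31.0% lower) and for 43.4% at 24 h (22.0% higher and 21.5% lower). The median difference of the members was 0.25 at 48 h and -0.021 at 24 h, beside -0.10 and -0.0068 over all genes tested. With arrays shifted to a common median, which moves the 48 h median of all genes by 0.12, 2 members were higher and 3 lower at 48 h by the test. Without replicate 3 in spheres at 48 h, 3 were called higher and 2 lower. With the replicate number as a block, 3 members were higher and 3 lower at 48 h, and the calls at 24 h numbered 5 as before.

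**Figure D3:**
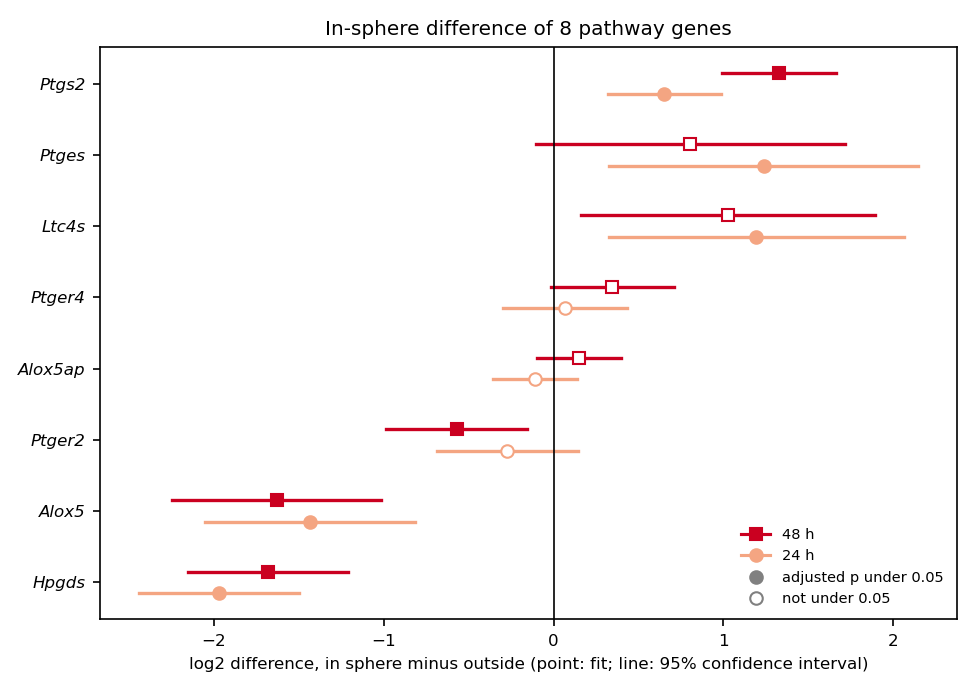
In-sphere minus outside difference of the 8 tested members on the log2 scale, at 48 h and at 24 h, with 95% intervals of the limma fit. Filled points passed an adjusted p under 0.05. Ptgs2 lies above 0 at both times, Hpgds and Alox5 lie below it at both times, and the intervals of Ptges, Alox5ap and Ptger4 at 48 h include 0.

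**Figure D4:**
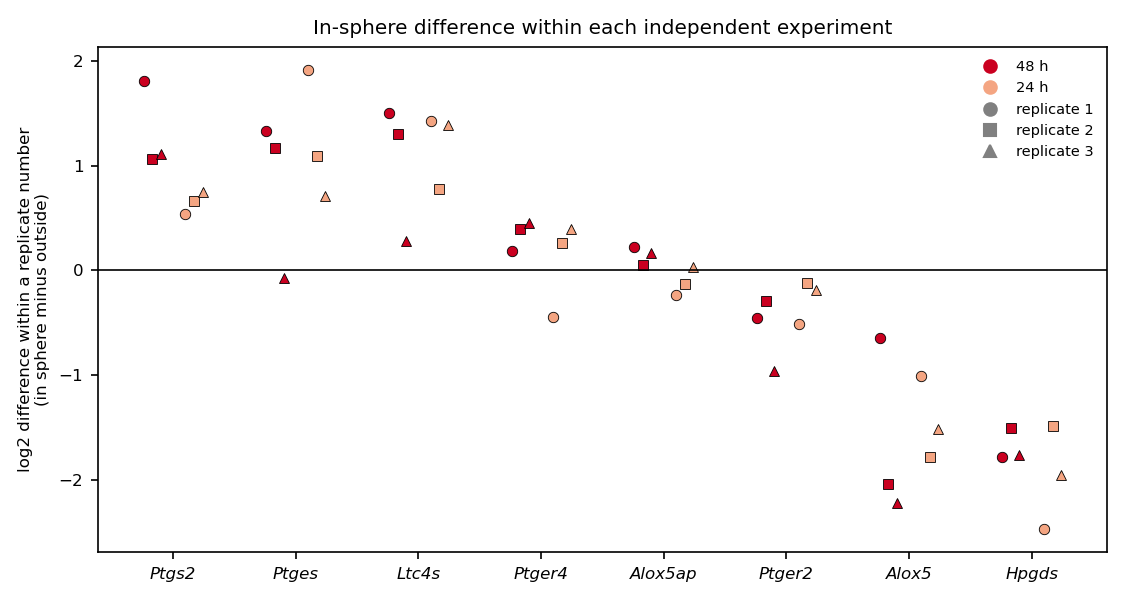
In-sphere minus outside difference of each experiment on the log2 scale, paired by replicate number, for the 8 tested members at 48 h and at 24 h. Each point is 1 experiment. All 6 pairs lie above 0 for Ptgs2 and Ltc4s and below it for Hpgds, Alox5 and Ptger2, and the Alox5 difference of replicate 1 is the smallest of the 3 at each time.

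Between times, 0 of 8 members were called inside the spheres, where 0% of genes were called, and 1 of 8 had an unadjusted p under 0.05 in limma. That gene was Hpgds, whose in-sphere levels given above did not overlap and were higher at 48 h than at 24 h by 0.92 ± 0.22 (adjusted p = 0.195). Without in-sphere replicate 2 at 24 h its difference was 1.21 and passed the test (adjusted p = 0.0453), in a range over alternatives of 0.0453 to 0.561. Outside the spheres 0 of 8 were called, where 0.336% of genes were, and 3 of 8 had an unadjusted p under 0.05. Their arrays did not overlap between times for 5 members, 1 higher and 4 lower at 48 h, beside 22.1% of all genes (13.4% higher and 8.66% lower). Inside the spheres they did not overlap for 1 member, higher at 48 h, beside 13.8% of all genes (4.46% higher and 9.30% lower). The outside cells had a Ptgs2 difference of -0.69 ± 0.15 for 48 h minus 24 h (adjusted p = 0.0914). It passed with array weights (0.0303) and with the trended robust variance (0.0273), in a range over alternatives of 0.0273 to 0.303, and the other probe set gave -1.09 ± 0.21 (0.0663). Outside cells had a Ptger4 difference of -0.50 ± 0.17 (0.261, or 0.0331 with array weights, in a range of 0.0331 to 0.554) and an Hpgds difference of 0.63 ± 0.22 (0.273). In-sphere Ptgs2 differed by -0.018 between the times, with a 95% interval of -0.35 to 0.32, and its other probe set gave -0.42 ± 0.21 (adjusted p = 0.546). Whether the in-sphere difference changed with time was tested as an interaction and called for 0 of 8 members and for 0% of genes. The 1 member with an unadjusted p under 0.05 was Ptgs2, at 0.68 ± 0.22 (unadjusted p = 0.00892 in limma, adjusted p = 0.249), so the larger fold at 48 h is not shown to differ from that at 24 h.

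Other genes of the eicosanoid pathway were read from a list of 57, of which 49 had a probe set and 37 were tested. In spheres, 5 were higher and 15 lower at 48 h and 4 higher and 12 lower at 24 h, beside the 37.5% and 29.4% of all genes called. The median difference of the 37 was -0.42 at 48 h and -0.19 at 24 h, beside -0.10 and -0.0068 over all genes. Without replicate 3 in spheres at 48 h, 16 of the 37 were called at that time, 4 of them higher and 12 lower. The list of arachidonic acid release also holds Acsl4 and Lpcat3, which act in the return of the acid to membranes and not in its release. Over all genes, 15.2% were higher and 22.3% lower at 48 h, and 15.8% and 13.6% at 24 h. Of the 11 tested genes of this list, 3 were higher, Acsl4 among them, and 5 lower, Lpcat3 among them, at each time. The higher ones included the cytosolic phospholipase A2 Pla2g4a, which supplies arachidonic acid for both branches, at 7.89, 7.68 and 7.69 in spheres and 6.25, 6.84 and 6.73 outside at 48 h. Its difference was 1.15 ± 0.20 at 48 h (adjusted p = 9.13e-04) and 1.11 ± 0.20 at 24 h (0.00156).

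Lower genes of release were the lysosomal phospholipase Pla2g15, with differences of -1.54 ± 0.19 at 48 h (adjusted p = 5.52e-05) and -1.08 ± 0.19 at 24 h (0.00101), and the monoacylglycerol lipase Mgll, with -1.21 ± 0.17 (2.06e-04) and -1.07 ± 0.17 (6.88e-04). The diacylglycerol lipase Daglb differed by -1.39 ± 0.25 at 48 h (adjusted p = 8.67e-04) and -0.77 ± 0.25 at 24 h (0.0339). The 24 h call of Daglb was lost in 5 of 22 alternatives. In 4 of these an array at 24 h was left out, namely in-sphere replicate 1 (-0.44, 0.112), in-sphere replicate 2 (0.0735), outside replicate 1 (0.112) and outside replicate 2 (0.0857). Over alternatives its adjusted p ran from 0.00192 to 0.112. The calcium-independent phospholipase Pla2g6 differed by -1.16 ± 0.21 at 48 h (adjusted p = 0.00105) and -0.74 ± 0.21 at 24 h (0.0202). Its probe sets disagreed, since their mean gave -0.47 at 48 h (adjusted p = 0.00849) and -0.075 at 24 h (adjusted p = 0.695, the top of a range over alternatives that begins at 0.00143), and the 24 h call was also lost when in-sphere replicate 2 (0.0846), outside replicate 1 (0.0583) or outside replicate 3 (0.0516) at 24 h was left out.

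The secreted phospholipase Pla2g12a was higher, by 0.65 ± 0.24 at 48 h (adjusted p = 0.0478) and 1.08 ± 0.24 at 24 h (0.00464). Its 48 h call was lost in 11 of 22 alternatives. These included 9 of 12 fits that left out an array, all but those without in-sphere replicate 1 or 3 at 24 h or in-sphere replicate 3 at 48 h, with differences of 0.53 to 0.71 and adjusted p of 0.0555 to 0.143. Over alternatives the adjusted p ran from 0.00140 to 0.143.

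Breakdown of prostaglandins begins with 15-hydroxyprostaglandin dehydrogenase, encoded by Hpgd. Its levels were 4.51, 4.50 and 3.59 in spheres, against 5.64, 6.52 and 6.22 outside, at 48 h. At 24 h they were 3.69, 3.90 and 3.94 in spheres, against 6.13, 6.15 and 5.88 outside. Every in-sphere array was below every outside array, and the differences were -1.93 ± 0.26 at 48 h (limma adjusted p = 1.14e-04) and -2.21 ± 0.26 at 24 h (6.87e-05). The mean of all probe sets of Hpgd gave smaller differences, -1.21 and -1.36, which were still called. Among 5 tested genes of prostanoid transport and breakdown 2 were lower at 48 h and 1 at 24 h, and among 5 other prostanoid synthases 3 and 1 were lower, beside 22.3% of all genes tested called lower at 48 h and 13.6% at 24 h. The prostacyclin synthase gene Ptgis was above the filter level on 0 of 3 in-sphere arrays at 48 h. It read 4.001, 5.40 and 4.06 outside at that time, so it was at least 3.27-fold lower in spheres (1.71 on the log2 scale), the bound being taken against the filter level. The bound itself was not tested. The fitted difference, which uses the in-sphere readings below the level, was -1.91 ± 0.32 (limma adjusted p = 6.45e-04). At 24 h Ptgis read 2.80, 2.55 and 2.64 in spheres, above the level on 1 of 3 arrays, against 3.13, 3.93 and 3.15 outside. The 24 h difference was -0.74 ± 0.32 (adjusted p = 0.108), which rests on 2 in-sphere readings below the level. It passed with only the 24 h arrays in the fit (0.0396) and without outside replicate 2 at 48 h (0.0159), and was -0.48 without outside replicate 2 at 24 h (0.350, the top of the range over alternatives). Of the other prostanoid receptors 2 were tested and 0 were called at either time, or had an unadjusted p under 0.05.

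On the leukotriene side, 9 other enzymes and transporters were tested, with 1 higher and 4 lower at 48 h and 0 higher and 3 lower at 24 h. Over all genes tested, 15.2% were called higher and 22.3% lower at 48 h, and 15.8% and 13.6% at 24 h. The microsomal glutathione transferase Mgst2, which can also make leukotriene C4, differed by -0.81 ± 0.30 at 48 h (limma adjusted p = 0.0472) and -1.10 ± 0.30 at 24 h (0.0138), opposite in sign to Ltc4s. The 48 h call of Mgst2 was lost in 10 of 22 alternatives, 8 of which left out an array. It was lost without any 1 array of the outside group at 48 h, in-sphere replicate 2 or 3 at 48 h, in-sphere replicate 2 at 24 h or outside replicate 1 or 3 at 24 h, with differences of -0.57 to -0.95 and adjusted p of 0.0517 to 0.178. Over alternatives its adjusted p ran from 0.0157 to 0.178. Its 24 h call was lost without in-sphere replicate 3 (-0.90, 0.0570) or outside replicate 2 (-0.84, 0.0619) at 24 h, in a range that begins at 0.00170.

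Among 5 tested receptors of leukotrienes and related lipids, 1 was higher and 1 lower at 48 h and 1 was higher and 2 lower at 24 h, so 2 and 3 of 5 were called beside 37.5% and 29.4% of all genes. Cysltr1, the receptor for leukotriene D4, read 8.36, 8.41 and 8.50 in spheres, against 6.61, 6.34 and 6.47 outside, at 48 h. At 24 h it read 7.74, 8.39 and 8.79 in spheres, against 7.02, 6.44 and 5.83 outside. Every in-sphere array was above every outside array, and the differences were 1.95 ± 0.28 at 48 h (adjusted p = 2.24e-04) and 1.88 ± 0.28 at 24 h (4.39e-04). Ltb4r1, the high-affinity leukotriene B4 receptor, read 6.55, 5.58 and 5.48 in spheres, against 6.30, 7.01 and 6.19 outside, at 48 h. At 24 h it read 5.25, 5.90 and 6.24 in spheres, against 7.61, 7.77 and 8.32 outside. The 24 h groups were well apart and the 48 h groups overlapped, through replicate 1 in spheres. The Ltb4r1 difference was -0.63 ± 0.33 at 48 h (adjusted p = 0.163) and -2.10 ± 0.33 at 24 h (5.86e-04), and its change between times was 1.48 ± 0.47 (unadjusted p = 0.00868, adjusted p = 0.244). Without in-sphere replicate 1 at 48 h the 48 h difference was -0.97 and passed the test (adjusted p = 0.0339), and without outside replicate 2 at 48 h it was -0.37 (0.458, the top of the range over alternatives). Fpr2, a receptor for formyl peptides and the lipid mediator lipoxin A4, differed by -1.37 ± 0.18 at 48 h (9.75e-05) and -1.28 ± 0.18 at 24 h (2.45e-04). Ltb4r1 and Fpr2 are also neutrophil genes, and the neutrophil sums given above were lower in spheres at both times, whose part here was not tested.

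**Figure D5:**
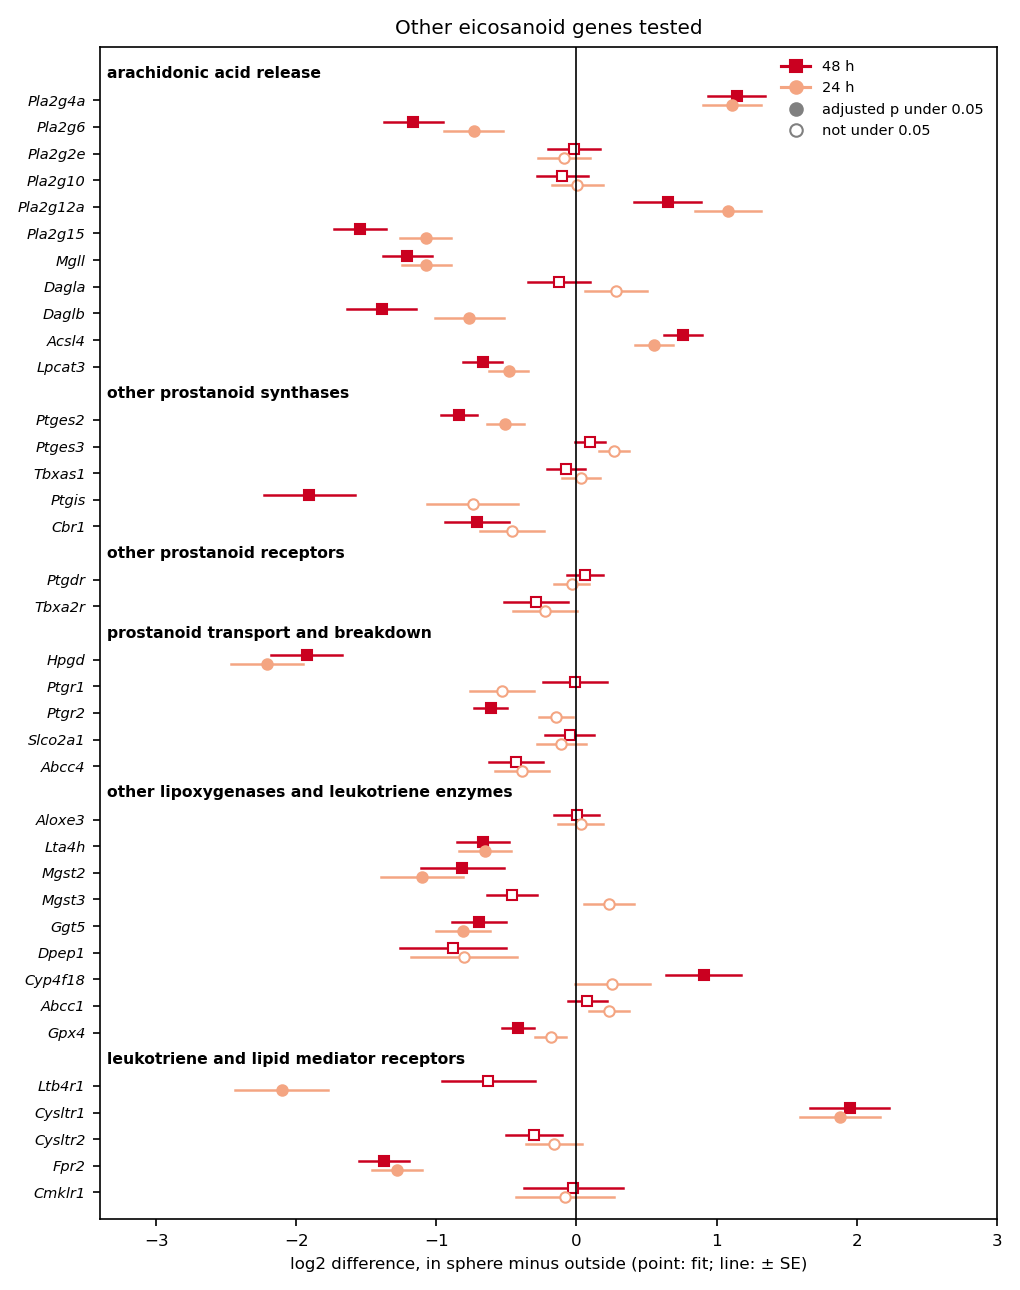
In-sphere minus outside difference on the log2 scale of the 37 tested genes of the other eicosanoid pathway list, by role, at 48 h and at 24 h. Filled points passed an adjusted p under 0.05 and lines span 1 SE either way. Cysltr1 and Pla2g4a lie to the right at both times and Hpgd lies to the left at both times.

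Genes whose levels tracked each member most closely over the 12 arrays were taken as a description, since all arrays share the in-sphere and outside contrast. For Ptgs2 they were the chemokine receptor gene Ccr2 (Pearson r = 0.986) and the Mediator subunit gene Med21 (0.978). For Alox5 they were Mfsd14b (0.985) and Ripor2 (0.982), and for Hpgds they were Sft2d1 (0.989) and Mthfs (0.975). For Ptges they were the growth factor gene Nrg1 (0.975) and Prickle2 (0.951), and for Ltc4s the unnamed gene models 1700003F12Rik (0.960) and 3110082I17Rik (0.956). Ptger4 was closest to the NF-kB target genes Birc3 (0.915) and Nfkbia (0.911), Ptger2 to Camsap2 (0.951) and Ypel2 (0.948), and Alox5ap to the leukocyte surface gene Cd52 (0.956) and Pacsin2 (0.908).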

How the data were processed

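Expression was measured on 12 Affymetrix mouse arrays. Per the submitters' processing notes, the authors summarised each probe set with RMA (Affymetrix Expression Console 1.1) and deposited the log2 values. RMA is meant to bring the arrays to a common distribution, and it compresses differences of dim probe sets. The deposited values of in-sphere replicate 3 at 48 h still departed from the rest, with a mean of 4.06 and a median of 3.03. The range of the values gave the log base as 2, and scanner files were not used here. The number of arrays limits the precision.

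Of 45141 probe sets 28898 carried exactly 1 gene symbol. A gene was tested where at least 3 arrays had its probe set above 2.77, which is percentile 40 of the whole table. The limma package (3.58.1, under R 4.3.3) fitted 1 model of 4 group means to all arrays, moderated by eBayes, with 8 residual and 4.09 prior degrees of freedom. P-values were adjusted by Benjamini-Hochberg over the genes tested within each of 5 comparisons. The fit was also run on simulated data with independent noise on each array and no replicate effect, so that run does not bear on the pairing. Its outcome is not given here. A dim group's bound is its fold against the filter level.

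Members and lists were chosen with earlier results of these data known. All members are named. Of the other pathway list, the genes called in either in-sphere comparison with an absolute difference of at least 0.5 are named, at most 12 by size, with Acsl4 and others among the counts. The 2 genes of highest Pearson r are named per tested member.

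Each replicate number is an independent experiment, per the series' design text, which is where the pairing comes from. Deviations from group means of same-numbered arrays correlated at 0.0215 to 0.473 over 18 pairs, 12 of them over 0.1, and at 0.0215 to 0.120 between in-sphere and outside arrays of a time. Alternatives were other scalings, filters, probe set rules, the replicate block, array weights, variance models and leaving out each array.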

Additional observations from a re-analysis of the deposited data

How the results depend on the processing

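Ptgs2, Alox5 and Hpgds kept their direction and their call at both times under every alternative run. Over the members and named genes, 1307 of 1420 alternative values kept direction and side of the threshold, 58 lost a call, 18 gained one and 37 reversed, 0 of them while called. The cause was not tested. In many of these fits direction could not change, since the group means compared stayed the same. Those were fits that left out an array of another group, changed the filter, added the replicate block or changed the variance model. The replicate block (pairing by experiment) called 6 members at 48 h, against 4 without it, and changed no other member's call than those of Ptges and Ltc4s at 48 h. Members called at 24 h numbered 3 with no filter on dim probe sets and 3 to 5 when an array was left out, against 5. Between times, 0 to 1 were called inside spheres when an array was left out, and outside 2 with array weights and 1 with the trended robust variance, against 0. No difference between times or interaction of a member should be read for direction where it reversed. With arrays shifted to a common median the 48 h minus 24 h value in spheres was 0.13 for Ptgs2 and 0.060 for Ltc4s, that outside was -0.015 for Alox5, and the interaction was 0.010 for Ltc4s. Quantile normalisation gave 0.014 for Ltc4s in spheres and -0.019 for Alox5 outside. Array weights gave 0.051 for Ptger2, -0.010 for Alox5ap and 0.56 for Ltc4s in spheres, -0.086 for Ltc4s outside, and interactions of 0.19 for Ptges, 0.016 for Ptger2, -0.082 for Hpgds and 0.65 for Ltc4s. Another probe set of Ptges gave -0.032 at 48 h. Leaving out each array gave -0.11 to 0.28 for Ptger4 at 24 h. In spheres between times it gave -0.12 to 0.051 for Ptgs2, -0.33 to 0.086 for Ptger2, -0.36 to 0.034 for Alox5, -0.047 to 0.11 for Alox5ap and -0.52 to 0.39 for Ltc4s. Outside it gave -0.24 to 0.33 for Alox5 and -0.12 to 0.24 for Ltc4s, and for the interaction -0.76 to 0.088 for Ptges, -0.52 to 0.052 for Alox5 and -0.59 to 0.32 for Ltc4s. Signal near background limits Alox15, Ptges and Ptgis, and also Ltc4s, which averaged 3.92 outside at 48 h and 3.84 at 24 h.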

Other observations

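Replicate 1 held the highest level in 4 of 4 groups for Ptges and in 4 of 4 for Ltc4s, and replicate 3 held the lowest in 4 of 4 for Ptger2. No other tested member had a replicate that was highest or lowest in 4 of 4 groups. How often this holds over all genes was not counted. The replicate numbers are the independent experiments, so for these genes the level outside the spheres and the level inside them were highest, or lowest, in the same experiment at both times.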
